A study of Mus musculus with 3 samples.

Results

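The keratins of the interfollicular epidermis, the skin surface between hair follicles, were examined in dorsal skin of wild type and uncv null mice. The group comprised 10 genes, Krt5, Krt14, Krt15, Krt1, Krt10, Krt2, Krt77, Krt79, Krt80 and Krt23, out of 18193 genes with a probe set of their own on the array. They were chosen by name, and each probe set whose annotation gave exactly 1 of these symbols was taken, which gave 12 probe sets. The wild type group (uncv +/+) was 1 array, and the uncv null group (uncv -/-) was 2 arrays, called null 1 and null 2. All 3 samples were total RNA of whole dorsal skin from 4-day-old female BALB/cA mice, sisters born to uncv heterozygous parents. Uncv is a spontaneous mutation that leaves mice with little hair, and it lies in Rhbdf2, the gene of the inactive rhomboid protein iRhom2. Expression is given as RMA log2 values, in which 1 unit is a 2-fold difference.

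Keratins form filaments as pairs of a type I and a type II chain, and each epidermal layer has its own pair. Basal cells, which divide and sit on the basement membrane, make the type II keratin Krt5 with the type I keratin Krt14, and many also make the type I keratin Krt15. When cells leave the basal layer they switch to the type II keratin Krt1 and the type I keratin Krt10. Krt2 follows in the upper layers at some body sites, and Krt77 is a further type II keratin of suprabasal cells. Krt79 marks cells of the mouse hair canal and the sebaceous duct, Krt80 is a type II keratin of many differentiating epithelia, and Krt23 is a type I keratin whose role in skin is less well known. The comparison asks whether the basal and suprabasal programmes stand at different levels without normal uncv function.

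RefSeq promoter windows on GRCm38.p6 were listed for 7 of the 10 members, namely Krt5, Krt14, Krt10, Krt2, Krt77, Krt79 and Krt23. The 120 bases before the listed start are shown for a basal keratin, a suprabasal keratin and the member with the largest mean difference among those tested. They lie on the minus strand at chr15:101712906-101713025 (Krt5), chr11:99389365-99389484 (Krt10) and chr15:101940325-101940444 (Krt79), are printed 5′ to 3′, and carry capitals at the TATA box core TATAAA.
Krt5: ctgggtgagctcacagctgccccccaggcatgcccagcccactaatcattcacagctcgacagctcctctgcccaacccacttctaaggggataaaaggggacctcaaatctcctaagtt
Krt10: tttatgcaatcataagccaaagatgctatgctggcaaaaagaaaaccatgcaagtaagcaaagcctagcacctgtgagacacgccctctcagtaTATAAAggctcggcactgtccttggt
Krt79: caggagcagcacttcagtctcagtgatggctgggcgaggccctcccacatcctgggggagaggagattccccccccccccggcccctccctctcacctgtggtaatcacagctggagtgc
The TATAAA core, searched on the gene's own strand, was present in 1 of the 7 windows, that of Krt10, where its first base lay 26 bases before the start. Of 32851 RefSeq windows of the same length, 4.19% held it. Only exact matches were searched, so variants of the TATA box were not counted. The AP-1 core TGANTCA and the AP-2 core GCCNNNGGC, searched on both strands, were present in 0 of the 7 windows, against 3.41% and 7.98% of all windows. The listed starts of Krt14, Krt10 and Krt2 lie 1480, 8085 and 787 bases inside the gene ranges of the same reference, and whether another start is used was not examined.

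Testing required a mean log2 value of at least 5. Of the 12 member probe sets 10 passed this filter, and they cover 9 of the 10 genes. Krt2 did not pass. Its values were 3.32 in wild type, 4.92 in null 1 and 3.26 in null 2, beside array medians of 3.70, 3.70 and 3.65. Krt2 therefore stood below the array median in wild type and null 2 and above it in null 1, and no size of difference is given. Rhbdf2 itself read 5.83 in wild type, 6.29 in null 1 and 6.49 in null 2, which checks no label because the position of its probe set and that of the mutation were not compared. All 6 general keratinocyte markers passed the filter, with wild type values from 8.87 (Trp63) to 11.32 (Perp). The arrays as a whole also differed in control probe sets. Signal for 18S ribosomal RNA, over 3 probe sets, had means of 3.59 (wild type), 7.93 (null 1) and 4.26 (null 2), and the excess of 3' over 5' signal for the Actb control was 0.66, 1.23 and 0.79 in that order. Null 1 stood apart on both measures, and their part in the results below was not tested.

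No member passed the test for a difference between uncv null and wild type skin. Of 13559 tested probe sets limma called 0, or 0.0%, at an adjusted p under 0.05, while 391, or 2.88%, had an unadjusted p under 0.05. None of the 10 member probe sets was among those 391, and the smallest unadjusted p of a member was 0.17, that of Krt79. The adjusted p by limma was 0.9996 for each member. In addition, 0 of the 9 tested member genes lay at least 1 log2 unit from wild type in both null arrays, where 0.225% of all 8456 tested genes lay that far above and 0.296% that far below. The widest departure of a tested member in any array was 0.84 (Krt79). With 1 wild type array the spread comes from the null arrays alone, and p-values measure only the spread between these samples. An exact permutation of 1 against 2 arrays could not go below a two-sided p of 0.67.

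**Figure D1:**
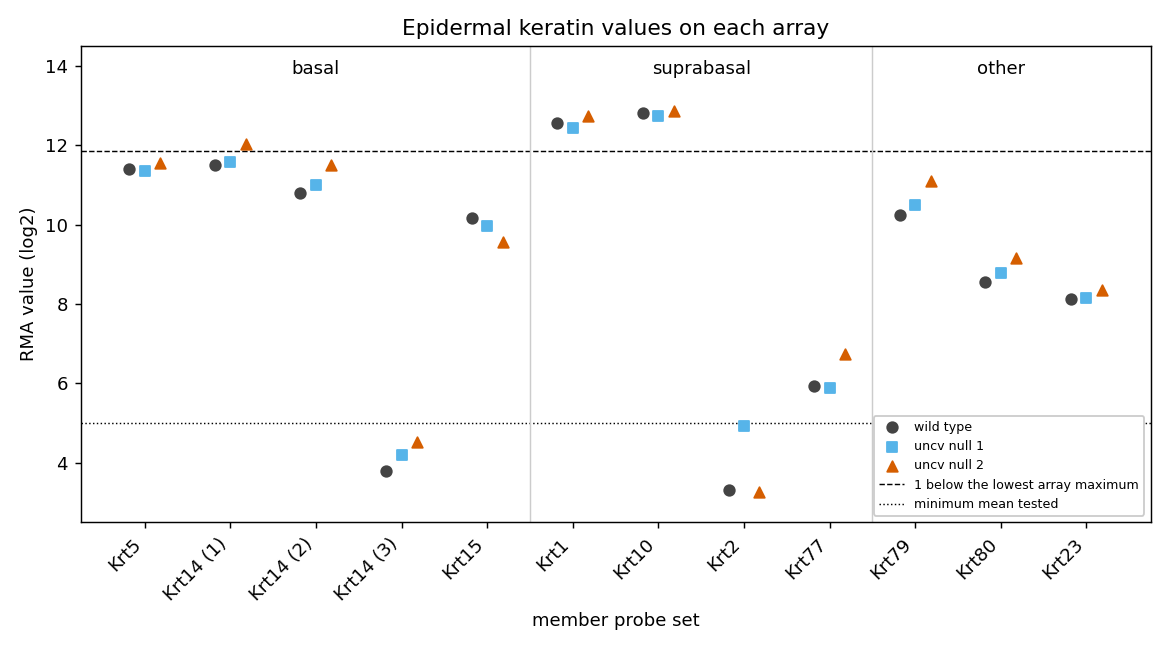
RMA log2 values of the 12 member probe sets (x axis) on each array, with basal, suprabasal and other keratins separated by vertical lines. The dashed line lies 1 log2 unit below the lowest of the array maxima and the dotted line marks the mean of 5 needed for testing. Krt1 and Krt10 lie above the dashed line on all arrays, while the 3 Krt14 probe sets keep the same order of arrays at very different brightness.

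Among the basal keratins, Krt5 and its partner Krt14 did not keep the same order of arrays. Krt5, the type II chain, was read by probe set 1424096_at and read 11.39 in wild type, 11.34 in null 1 and 11.55 in null 2 (log2). The null arrays lay on either side of wild type, and the mean difference was 0.055 ± 0.27 (± is the SE moderated by limma, with 1 wild type and 2 null arrays, and the 95% interval was -0.61 to 0.72). Krt14, the type I chain, was read by probe set 1423935_x_at at 11.49, 11.58 and 12.03 in the same order of arrays. Both null arrays were above wild type, and null 1 lay closer to wild type than to null 2. The mean difference of Krt14 was 0.31 ± 0.30 (95% interval -0.44 to 1.06).

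Krt14 was also read by a pair of further probe sets. Probe set 1460347_at gave 10.79, 11.01 and 11.49, a mean difference of 0.46 ± 0.31. Probe set 1455573_at, too dim to be tested and close to the array median in wild type, gave 3.80, 4.18 and 4.52. All 3 probe sets placed the arrays in the order wild type, null 1, null 2. Their differences were 0.088, 0.22 and 0.39 in null 1 and 0.54, 0.70 and 0.72 in null 2, and the difference was smallest for the brightest probe set. An x_at probe set can take up signal from close paralogs, and Krt14 shares sequence with Krt16 and Krt17, which were also above wild type in both null arrays by 2.03 and 3.84 (Krt16) and by 0.042 and 0.61 (Krt17). How far these paralogs contribute to the Krt14 values was not tested.

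Krt15, a type I keratin of basal cells and of the hair follicle bulge, ran in the opposite order to Krt14. Its values were 10.18 in wild type, 9.97 in null 1 and 9.55 in null 2 (probe set 1422667_at). Both null arrays lay below wild type, by 0.20 and 0.63, so that the mean was 1.33-fold lower (difference -0.42 ± 0.30, 95% interval -1.15 to 0.32). It was the sole member below wild type in both null arrays, a pattern that 26.4% of all tested genes had. Within each array the log2 ratio of Krt14 to Krt15 exceeded its wild type value by 0.29 in null 1 and 1.16 in null 2. The ratio of Krt14 to its partner Krt5 exceeded it by 0.14 and 0.38.

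The main suprabasal pair had the smallest mean differences of the tested members. Krt1 (probe set 1422481_at) had values of 12.56 in wild type, 12.44 in null 1 and 12.74 in null 2, a mean difference of 0.028 ± 0.28 (95% interval -0.66 to 0.72). Krt10 (probe set 1452166_a_at) had values of 12.81, 12.73 and 12.86, a mean difference of -0.011 ± 0.26 (95% interval -0.66 to 0.63). Both genes were lowest in null 1 and highest in null 2, and the 3 arrays spanned 0.30 for Krt1 and 0.13 for Krt10. Krt77 (probe set 1433923_at) had values of 5.95, 5.90 and 6.73. Null 1 was close to wild type while null 2 stood 1.72-fold above it, and the mean difference was 0.37 ± 0.39 (95% interval -0.61 to 1.34).

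Krt1 and Krt10 were among the brightest probe sets of each array. Krt10 was the third brightest of all 45101 probe sets in wild type, the fifth in null 1 and the brightest in null 2, where its 12.86 was the highest value of the array. Krt1 ranked 11, 14 and 5. The highest values of the arrays were 13.08 in wild type, 12.91 in null 1 and 12.86 in null 2. Counting a probe set as near-saturated where it came within 1 log2 unit of its array's highest value on any array, 97 of all probe sets and 3 of the 12 member probe sets qualified. These 3 were Krt10, Krt1 and the brightest Krt14 probe set, which came within 0.83 in null 2 and no closer than 1.33 elsewhere. Krt5 missed this bound at 1.31 in null 2, the nearest of the member probe sets outside it. Saturation itself can be read only from scanner files, which were not used here.

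Differences were smaller at that brightness over the whole table. Over the 63 tested probe sets with a mean of at least 12, the median absolute difference from wild type was 0.085 in null 1 and 0.080 in null 2, and 0 of them differed by 2-fold or more in either array. Over the 4449 probe sets with means from 5 to 6 the medians were 0.22 and 0.24, and 5.62% differed by 2-fold or more in at least 1 array. Against the bright group, the absolute differences of Krt1 (0.12 and 0.18) were above the median in both arrays, while those of Krt10 (0.075 and 0.053) were below it. Whether the RMA scale is compressed at this brightness was not tested, and a small difference of Krt1 or Krt10 does not show that their transcripts were equal.

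**Figure D2:**
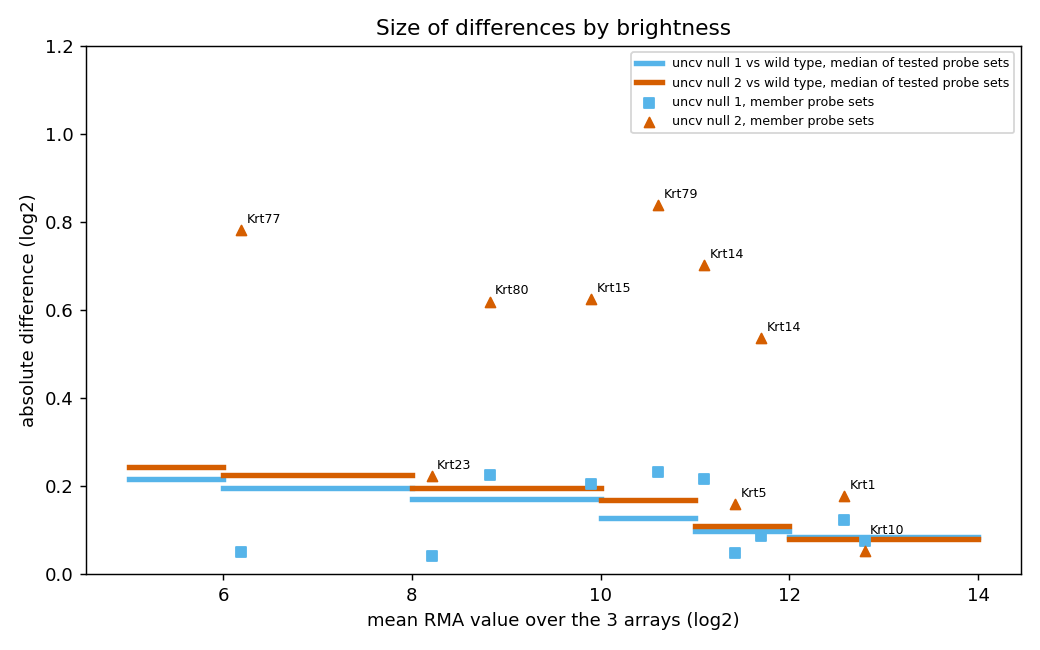
Absolute log2 difference from wild type (y axis) against mean RMA log2 value over the 3 arrays (x axis) for the 10 tested member probe sets, with squares for null 1 and triangles for null 2. Horizontal bars give the median over all tested probe sets in each brightness range, and they fall from 0.22 and 0.24 at the dim end to 0.085 and 0.080 at the bright end.

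The remaining 3 keratins were each above wild type in both null arrays. Krt79 (probe set 1427352_at) had values of 10.25 in wild type, 10.48 in null 1 and 11.09 in null 2. Null 2 stood 1.79-fold above wild type and null 1 1.17-fold, with a mean difference of 0.53 ± 0.34 (95% interval -0.30 to 1.37). Krt80 (probe set 1419619_at) had values of 8.54, 8.77 and 9.16, a mean difference of 0.42 ± 0.29 (95% interval -0.30 to 1.15). Krt23 (probe set 1418213_at) had values of 8.12, 8.16 and 8.34, a mean difference of 0.13 ± 0.26 (95% interval -0.52 to 0.79). All 3 placed the arrays in the order wild type, null 1, null 2, and none passed the test.

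Across the members, 4 of the 9 tested genes were above wild type in both null arrays (Krt14, Krt79, Krt80 and Krt23), beside 38.8% of all tested genes. Each of these 4 had the upward order wild type, null 1, null 2, which 24.8% of all tested genes had, and Krt15 had the reverse order, which 15.7% had. The other 4 (Krt5, Krt1, Krt10 and Krt77) were below wild type in null 1 and above it in null 2, a pattern of 20.1% of all tested genes. In 8 of the 9 genes null 2 was above null 1, with Krt15 as the exception, whereas 55.6% of all tested genes had that order. The null arrays also differed from each other by more than their mean differed from wild type in 8 of the 9 genes, the exception being Krt80, and in 57.5% of all tested genes. The member median was -0.049 in null 1 and 0.22 in null 2, beside 0.025 and 0.066 over all tested genes.

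Basal and suprabasal keratins were set against each other through their differences from wild type, since values of unlike probe sets cannot be compared directly. The mean difference of Krt5, Krt14 and Krt15 was -0.055 in null 1 and 0.024 in null 2. That of Krt1, Krt10 and Krt77 was -0.083 and 0.34. Basal minus suprabasal thus stood at 0.027 in null 1 and -0.31 in null 2, and the arrays did not share a sign. The mean of -0.14 was smaller than the SD of 0.24 between the null arrays. It became 0.18 when only the main pairs, Krt5 and Krt14 against Krt1 and Krt10, were compared (0.12 and 0.23 in the null arrays), and 0.056 without Krt15. A shift between the layers therefore had no settled direction in these 3 arrays.

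**Figure D3:**
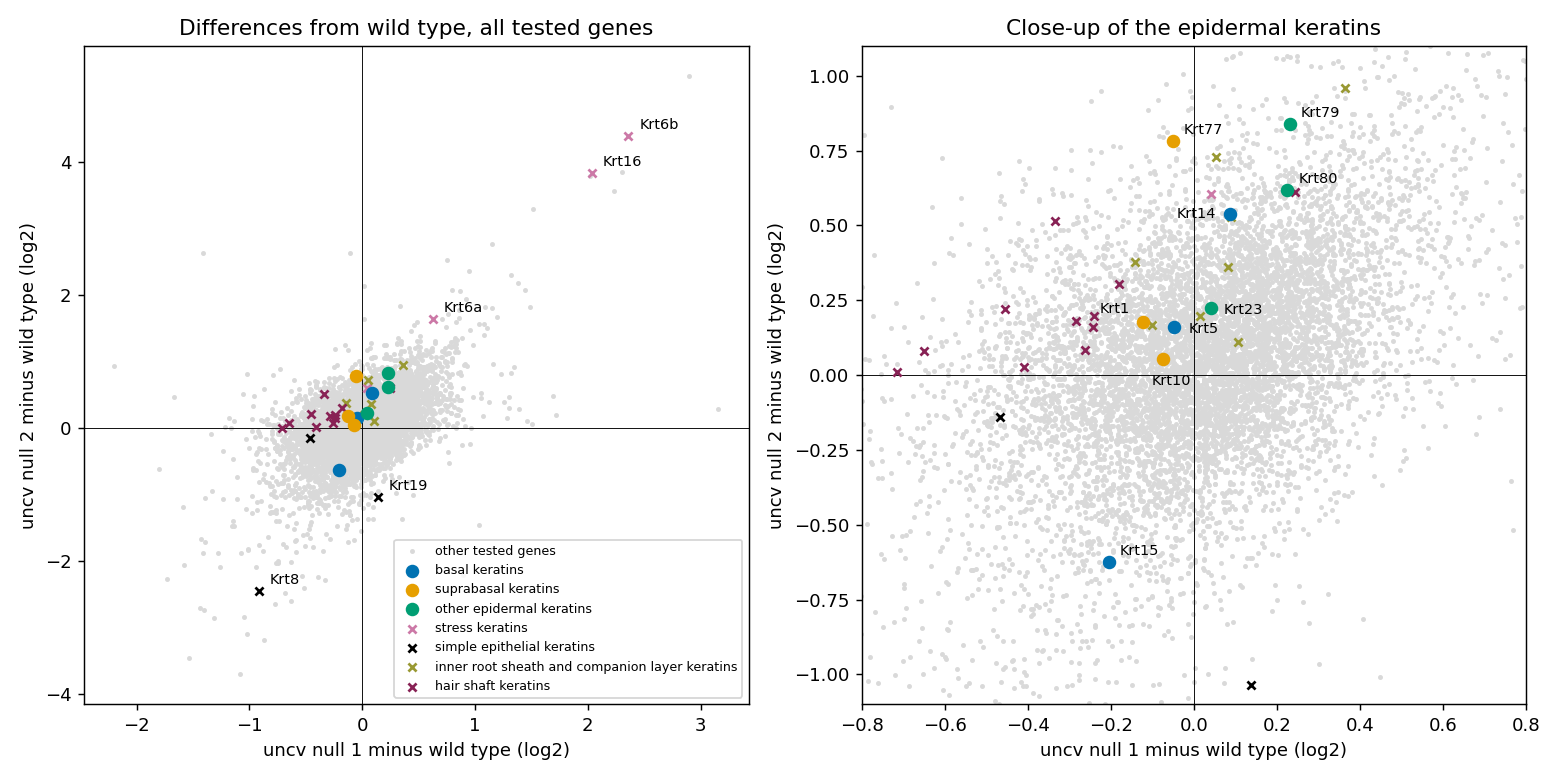
Log2 difference from wild type in null 1 (x axis) and null 2 (y axis), with 1 point per gene. The left panel shows all 8456 tested genes in grey with keratins by class, and the right panel is a close-up in which the 9 tested members are filled circles. Krt6b and Krt16 lie far to the upper right, while these 9 members lie within 0.84 of zero on both axes and Krt15 is the sole one of them in the lower left.

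The keratins whose pair of differences lay nearest to each member were found among the other 37 tested keratins, over 3 arrays. Krt14 lay nearest to Krt73, an inner root sheath keratin, at a Euclidean distance of 0.0075 log2 units, and Krt80 lay nearest to the hair shaft keratin Krt32 at 0.019. Krt1 and Krt5 both lay nearest to Krt71, a further inner root sheath keratin, at 0.024 and 0.053, and Krt23 to Krt28 at 0.039. Krt10 lay nearest to Krt5 at 0.11, Krt77 to Krt26 at 0.12 and Krt79 to the companion layer keratin Krt75 at 0.18. Krt15 had no close neighbour, and the nearest, Krt19, was 0.54 away. These distances rest on 2 differences that share the wild type array.

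The stress keratins, which injured or hyperproliferative epidermis makes in place of the suprabasal pair, lay beyond the members' range in both null arrays for Krt6b, Krt16 and Krt6a but not for Krt17. All 4 were above wild type in both null arrays, beside 38.8% of all tested genes. The differences were 2.36 and 4.40 for Krt6b, 2.03 and 3.84 for Krt16, 0.63 and 1.64 for Krt6a and 0.042 and 0.61 for Krt17. None of the 4 passed limma's test over all probe sets (adjusted p = 0.9996 for each). The inner root sheath and companion layer keratins had medians of 0.067 and 0.37 over 8 genes. Of these 8, 6 were above wild type in both arrays and 0 below, beside 38.8% and 26.4% of all tested genes. Krt75 stood at 0.66 by its mean difference, Krt26 at 0.39, Krt73 at 0.31 and Krt25 at 0.22. The hair shaft keratins had medians of -0.29 and 0.18 over 11 genes. The arrays differed in sign for 10 of them, and for 2942 of all 8456 tested genes. Krt32 stood at 0.43, Krt81 at -0.35, Krt83 at -0.29 and Krt33b at -0.19. Over all 38 tested keratins, members included, null 2 lay above null 1 in 32, beside 55.6% of all tested genes.

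Proteins that anchor keratin filaments to desmosomes and hemidesmosomes were mostly above wild type. All 8 measured of 9 listed plaque proteins were above it in both null arrays, beside 38.8% of all tested genes, with medians of 0.39 and 0.45. Dst, whose epithelial form ties the basal keratin network to hemidesmosomes, had values of 8.23 in wild type, 8.80 in null 1 and 9.33 in null 2. Jup, the desmosomal plaque protein plakoglobin, had values of 8.69, 9.27 and 9.12, Evpl, the cornified envelope protein envoplakin, had 7.63, 8.06 and 8.20, and Pkp3, a plakophilin, had 9.04, 9.32 and 9.71. These 4 had the largest mean differences of the tested plaque proteins, 0.83, 0.50, 0.50 and 0.48. None of them passed limma's test (adjusted p = 0.9996 for each). Averaged over its 4 probe sets, the difference of Dst was 0.24, and over the 3 of them that were tested it was 0.41. That of Pkp3 was 0.38 averaged over both of its probe sets.

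Of 17 listed transcription regulators of the epidermis 15 were measured. By their brightest probe sets, 10 were above wild type in both null arrays and 1 below, beside 38.8% and 26.4% of all tested genes. The list medians were 0.21 and 0.35. Zfp750, a regulator of terminal differentiation, had values of 7.46, 7.93 and 8.33. Gata3, a regulator of the barrier and the inner root sheath, had 6.87, 7.52 and 7.46, and Grhl3, a grainyhead-like regulator of barrier formation, had 5.84, 6.18 and 6.73. Their mean differences were 0.67, 0.62 and 0.61. Cebpb, a differentiation factor, stood at 0.41, or 0.30 averaged over both of its probe sets. Trp63, the master regulator of stratified epithelium and an activator of Krt5 and Krt14, had 8.87, 9.08 and 9.15, but the mean over its 4 probe sets was a difference of -0.20. None of these genes passed the test (limma adjusted p = 0.9996 for each), and the 1 gene below wild type in both arrays was Maf at -0.21, or -0.073 averaged over its 6 probe sets.

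Layer markers other than keratins were described in the same way. All 5 basal layer markers were above wild type in both null arrays, beside 38.8% of all tested genes. Their medians were 0.23 and 0.67, while the basal keratins had medians of -0.049 and 0.16. Itgb4, the hemidesmosomal integrin chain, had values of 5.40 in wild type, 6.22 in null 1 and 6.72 in null 2, a mean difference of 1.07. The laminin-332 chains Lama3 and Lamb3 each stood at 0.45 and the integrin chain Itga6 at 0.42. Averaged over both of its probe sets, Itga6 stood at 0.35. The average for Lama3 was 0.26 with a probe set too dim to be tested. Of 8 spinous and granular markers 3 were above and 1 below in both arrays, beside 38.8% and 26.4% of all tested genes. Their medians were 0.054 and 0.035. Ivl, which encodes the envelope protein involucrin, stood at 0.46, or 0.33 averaged over both of its probe sets. The desmosomal cadherin Dsg1a stood at 0.20, Krtdap, a secreted product of differentiating keratinocytes, at 0.13 and Flg, which encodes the keratin-bundling protein filaggrin, at -0.18. Loricrin (Lor), a cornified envelope protein, read 12.33, 12.21 and 12.38, within 1 log2 unit of the highest value of each array. Its mean difference was -0.034, or -0.0070 averaged over its 2 tested probe sets. The average over all 3 was 0.38, but the third was too dim to be tested. None of these markers passed limma's test.

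Markers of the cell types in whole skin are given for comparison, and none passed limma's test (adjusted p = 0.9996 for each tested marker). Of all tested genes, 38.8% were above and 26.4% below wild type in both null arrays. By their brightest probe sets, all 6 general keratinocyte markers were above, with medians of 0.17 and 0.33. Dsp stood at 0.33, Epcam at 0.31, Sfn at 0.28 and Trp63 at 0.24. But averaged over their probe sets, Dsp stood at 0.26, Epcam at 0.21 and Trp63 at -0.20. All 7 muscle markers were below, with medians of -0.87 and -1.11 and a summed level of 13.70 in wild type, 13.13 in null 1 and 12.92 in null 2 on the log2 scale. Actc1 and Myh3, of embryonic muscle, had mean differences of -2.08 and -2.03 and Tnnt3, the fast troponin T, of -1.02. Tnni1, the slow troponin I, differed by -1.73 and -2.27, and Actc1 and Tnni1 were at least 2-fold below wild type in both arrays. All 5 fibroblast markers were below, with medians of -0.11 and -0.49 and summed levels of 14.36, 14.26 and 13.92. The collagen chain Col1a1 stood at -0.40 by its brightest probe set but at 0.37 averaged over both of its probe sets, and the matrix proteoglycans Lum and Dcn stood at -0.36 and -0.35 and Col1a2 at -0.22. With a probe set too dim to be tested averaged in, Dcn stood at -0.20. All 4 measured adipocyte markers were above, with medians of 0.49 and 0.97 and summed levels of 11.50, 11.78 and 11.98, and Cidec stood at 1.05, Lipe at 0.81, Adipoq at 0.67 and Fabp4 at 0.13. With probe sets too dim to be tested averaged in, Lipe stood at 0.45 and Fabp4 at 0.26. The tested probe sets of Fabp4 averaged 0.15. Leukocyte markers had 2 of 4 above and 0 below, endothelial markers 0 above and 1 of 4 below, melanocyte markers 0 of 4 on either side in both arrays, and sebaceous gland markers 2 of 3 above. Their part in the keratin differences was not tested, and in whole skin more cells of a type cannot be told apart from more RNA per cell.

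**Figure D4:**
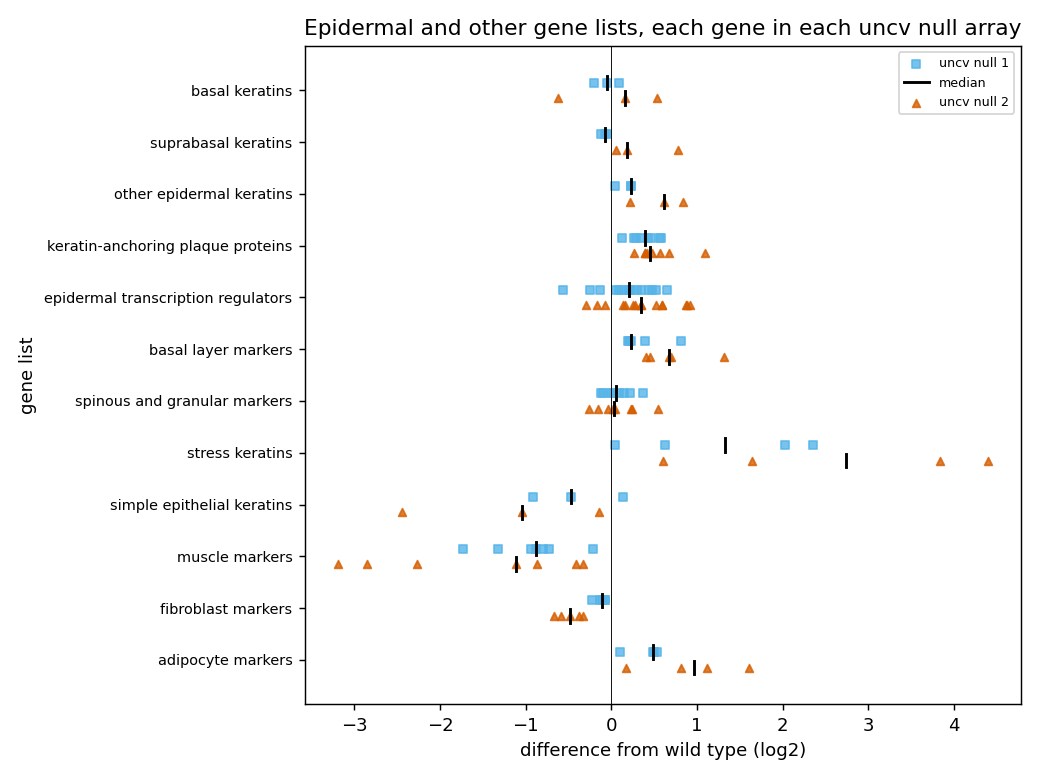
Log2 differences from wild type (x axis) of each tested gene in 12 gene lists (y axis), with squares for null 1, triangles for null 2 and black ticks for the list median in each array. The medians were -0.049 and 0.16 for the basal keratins and -0.075 and 0.18 for the suprabasal keratins, with single genes in null 2 from -0.63 (Krt15) to 0.78 (Krt77), and they were 0.39 and 0.45 for the plaque proteins and -0.87 and -1.11 for the muscle markers.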

How the data were processed

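Gene expression was measured in total RNA of dorsal skin, with 1 biotin-labelled, 1-colour array per sample. The authors deposited log2 values made with RMA for each probe set, per the submitters' processing notes. The sources used here do not give the software or the background model. RMA brings arrays to a common distribution, so a shift of all transcripts together cannot be seen. Groups came from the sample titles.

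Of 45101 probe sets, 64 controls were set aside, and 34945 of the rest had exactly 1 gene symbol in the platform annotation. Probe sets with a mean of at least 5 were tested with limma 3.58.1 under R 4.3.3 (linear model and empirical Bayes, Benjamini-Hochberg over 13559 probe sets, threshold 0.05), with 1 residual and 4.75 prior degrees of freedom. Each of 8456 genes was represented by the probe set of highest mean. Averages over a gene's probe sets include any too dim to be tested, except where the tested ones are named. Differences are uncv null minus wild type. The number of arrays limits the precision. The fit was tested on simulated data with its own fitted spread. The simulated differences exceeded those of every tested member, so this check does not show how often differences of their size would be called.

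The members and lists were chosen with earlier results of these data known. Named genes are all members, the 4 of each list with the largest mean difference, genes at least 2-fold from wild type in both null arrays, and the keratin nearest to each member by Euclidean distance. Trp63 as a regulator, Perp, Lor and Maf were named after their values were seen, and leukocyte, endothelial, melanocyte and sebaceous markers are given as counts. Alternatives were other filters, normalizations, variance models, probe set rules, keratins compared and saturation bounds, and leaving out each null array.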

Additional observations from a re-analysis of the deposited data

Results flagged for a closer look

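The control probe sets for 18S ribosomal RNA, which enter no comparison, averaged 4.34 log2 units more in null 1 than in wild type. The signal lies outside the genes tested and above the level of the control sample, over 3 probe sets on 1 array each.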

How the results depend on the processing

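The count of called probe sets was 0 in the whole table and 0 among the members under every filter, normalization and variance model tried with limma, and 0 among the members when probe sets were averaged per gene. The number of probe sets with an unadjusted limma p under 0.05 was 391 of 13559 as reported and 480 of 13559 with quantile normalization of the deposited values. It was 1305 of 45037 with no filter and 180 of 5374 at a minimum mean of 7, so these counts also follow the number tested. Leaving out an null array left no residual degrees of freedom, so it gave values without a test.

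Basal minus suprabasal, at -0.14, turned to 0.18 for Krt5 and Krt14 against Krt1 and Krt10, and to 0.056 without Krt15, an alternative chosen after seeing the data. Leaving out each null array in turn gave -0.31 to 0.027. The mean over the null arrays kept its sign under the other alternatives, from -0.33 with near-saturated probe sets left out to -0.024 at a minimum mean of 7. The -0.33 set Krt5, Krt15 and a less bright Krt14 probe set against Krt77 alone, with 0.038 in null 1 and -0.70 in null 2. A minimum mean of 7 took out Krt77 only. Leaving out Krt77, also chosen after seeing the data, was therefore the same comparison (0.043 in null 1 and -0.092 in null 2). With no filter, where Krt2 enters, basal minus suprabasal was -0.30 (-0.39 in null 1 and -0.21 in null 2). Krt2 was too dim to be tested and stood above the array median in null 1 alone, so this value rests in part on a dim probe set.

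Krt10 turned to 0.052 with quantile normalization. With each null array left out in turn it ranged from -0.075 to 0.053, Krt5 from -0.049 to 0.16, Krt1 from -0.12 to 0.18 and Krt77 from -0.051 to 0.78. The near-saturated member probe sets numbered 3 as reported, 2 within 0.5 log2 unit and 5 among the brightest 0.5% of probe sets, a bound that takes in 225 per array. No cause of these changes was tested. No paired analysis was possible because the wild type group has 1 array and carries no replicate number.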

Other observations

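Keratins of simple and mucosal epithelia, which line ducts, glands and internal surfaces, included the members of the family farthest below wild type. Krt8, a type II keratin of simple epithelia, was read by 3 probe sets. The representative probe set read 6.52 in wild type, 5.60 in null 1 and 4.07 in null 2 (log2), the others 6.57, 5.41 and 4.02, and 5.50, 4.68 and 3.55. All 3 gave the same order of arrays, with the dimmest at or below the array median of 3.65 in null 2. The mean difference of Krt8 by the representative probe set was -1.68 ± 0.61 (SE moderated by limma, adjusted p = 0.9996), and 1 of the other probe sets, at -1.17 and -2.56, lay more than 2-fold below wild type in both null arrays.

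Krt18, the type I partner of Krt8, had 5.64, 5.18 and 5.50, so that its null 2 value did not share the low level of Krt8. Krt19, a type I keratin of simple epithelia and of follicle cells, had 5.88, 6.02 and 4.84. Krt4, a keratin of mucosal epithelium, had 5.48, 6.37 and 3.27 by its tested probe set and 5.82, 5.54 and 3.19 by another that was too dim to be tested. Krt19 and Krt4 were thus low in null 2 alone, and the arrays differed in sign for the tested probe set of each. Krt78, a type II keratin, had 7.33, 7.60 and 7.41. Simple epithelial keratins had 2 of 3 tested genes below wild type in both arrays, beside 26.4% of all tested genes. Krt7 and Krt20 were too dim to be tested. The cause of the low values in null 2 was not tested.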
